A study of Mus musculus with 56 samples.

Results

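H19, Lin28a and the IGF axis are followed here as a set of 8 genes, given by symbol and matched to 8 of the 57010 gene rows of the count table. The set holds the non-coding RNA H19, its neighbour Igf2, the RNA-binding proteins Lin28a and Igf2bp2, the growth factor Igf1, the receptors Igf1r and Igf2r, and the binding protein Igfbp5. The genes were chosen by name, with results of these data already known. Among the values known was the higher level of Lin28a in ribosomal RNA of female mice without HuR. That difference, and each comparison that rests on the same ribosomal libraries of female knockouts for Lin28a, is given as a description without a test. Of the 8 genes, 6 passed the filter on low counts in ribosomal RNA and 7 in total RNA. Igf2 failed in both, and Igf2bp2 failed in ribosomal RNA. Lin28a passed in both RNA types through knockout libraries alone, so it is counted apart from the other members between knockouts and controls.

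The samples were gastrocnemius muscles, the large calf muscle, from mice of 20 to 22 weeks. All mice carried the ribosomal protein L10A tagged with GFP and turned on by Cre recombinase, and the Mlc1f promoter, a promoter of muscle fibres, drove the Cre. Controls therefore carry the tagged ribosome and the Cre as well. The other mice also had a floxed Elavl1, the gene of the RNA-binding protein HuR, which the same Cre removes. Ribosomal RNA is what came down with the tagged ribosomes of fibres, and total RNA came from the whole muscle with all its cell types. There were 8 groups of 7 libraries: female controls, female knockouts, male controls and male knockouts, each as ribosomal and as total RNA.

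As background, H19 is an imprinted long non-coding RNA, transcribed from the maternal copy and abundant in fetal and adult skeletal muscle. It shares its locus with Igf2, which is transcribed from the paternal copy, and its exon holds the precursor of the miRNA miR-675. LIN28A binds precursors of the let-7 miRNAs and blocks their maturation, and let-7 in turn represses Lin28a and several mRNAs of insulin-like growth factor signalling. IGF1 and IGF2 act through IGF1R, IGF2R takes IGF2 up for breakdown, IGFBP5 binds both factors outside the cell, and IGF2BP2 binds Igf2 and other mRNAs. HuR is known for binding mRNAs rich in A and U and for making many of them more stable.

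The miRNA sequences that tie these genes together are shown first, because the libraries measured none of them: 3′ tag libraries of polyadenylated RNA do not count mature miRNAs. The sequences come from RefSeq on build GRCm38.p6, run 5′ to 3′, and have their seed, bases 2 to 8, in capitals. The first 3 belong to the let-7 family, in which 9 mature miRNAs of the table, miR-98-5p among them, shared the seed GAGGUAG. The last pair comes from the H19 transcript itself, and their seeds differ from let-7 and from each other.
mmu-let-7a-5p, minus strand of chr13:48538239-48538260: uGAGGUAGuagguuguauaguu
mmu-let-7g-5p, plus strand of chr9:106178846-106178867: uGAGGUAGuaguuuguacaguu
mmu-miR-98-5p, plus strand of chrX:151913229-151913250: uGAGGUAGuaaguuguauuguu
mmu-miR-675-5p, minus strand of chr7:142577112-142577133: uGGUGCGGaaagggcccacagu
mmu-miR-675-3p, minus strand of chr7:142577078-142577099: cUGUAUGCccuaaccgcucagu

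Letters that pair with the let-7 seed, CTACCTC, were looked for in the longest annotated transcript of each gene, on the transcript's own strand. In the last 2000 bases, a window held by 16546 transcripts, 14.6% of all transcripts had the match. Among the set it stood there in Lin28a, with 2 copies, and in Igf1r, Igf2r, Igf2bp2 and Igfbp5, with 1 copy each. Igf1 had 1 copy in its 3′ UTR, before that window. The whole 3′ UTR of Igf1r held 2 copies, the other one also before the window. Igf2, Igf1r and Igf2r had copies outside the 3′ UTR as well. H19 had none in its whole transcript. The match to miR-675-5p, CCGCACC, was found in no member and in 4.3% of windows. The match to miR-675-3p, GCATACA, stood in 10.1% of windows and, among the members, only in the 3′ UTR of Igf1r, with 2 copies before that window. The sites below are 30 bases of the transcript with the match in capitals, and they are shown for 3 of the genes whose levels are described next.
Lin28a, first site: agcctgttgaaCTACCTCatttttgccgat
Lin28a, second site: tcgccacaaacCTACCTCactgtgttgaaa
Igf1r, let-7 match nearest the end: ccagagttcatCTACCTCtgggatttaaaa
Igf1r, first miR-675-3p match: ctcatcaccccGCATACAcctgcctgacac
Igfbp5, let-7 match: cccaggtcagcCTACCTCccccaaacttgt
A match describes the letters, not binding. The motif ATTTA, a core of AU-rich elements, was in the last 2000 bases of all 8 members and in 84% of all windows.

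Ribosomal libraries held 160313 to 3579221 counts and total libraries 2427655 to 5848058, so ribosomal levels rest on fewer reads. Levels are given as CPM, read counts divided by library size on the usual common scale, with library sizes adjusted by TMM factors over all 56 libraries. Elavl1 did not pass the test between knockouts and controls in either sex or RNA type (log2 fold change 0.27 and 0.29 in ribosomal RNA and −0.01 and −0.14 in total RNA of females and males, edgeR adjusted p = 0.206, 0.234, 0.969 and 0.477). The labels do not say which exons were floxed, and a 3′ tag that lies beyond the removed exons checks nothing, so the groups are called labelled knockouts. Fibre markers were present in all groups: 8 of 8 were counted, and their summed level was 61837 to 195411 CPM in ribosomal RNA. The 3 genes whose fold changes are least certain are Lin28a, Igf2bp2 and Igf2, which hold few counts in each library.

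H19 (ENSMUSG00000000031) was higher in ribosomal RNA of labelled knockouts in both sexes, and the rise was larger in females. In ribosomal RNA of female controls the lowest, median and highest levels were 75.3, 99.9 and 119 CPM. Among female labelled knockouts they were 202, 335 and 492 CPM. All 7 labelled knockouts lay above all 7 controls, and the groups did not overlap. The means were 96.1 ± 16.5 and 338 ± 103 CPM (SD, n = 7 each), a 3.67-fold rise (log2 fold change 1.88, SE 0.187, edgeR adjusted p = 1.83e-08). In this comparison 3 of the 5 members with a test rose, H19, Igf1 and Igfbp5, and 0 fell. Of all genes tested there, 8.44% rose and 8.41% fell.

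Ribosomal H19 in males had lowest, median and highest levels of 51.7, 74.6 and 111 CPM in controls and of 90.3, 127 and 172 CPM in labelled knockouts. The ranges overlapped, with 5 of 7 labelled knockouts above every control. The rise was 1.56-fold (log2 fold change 0.64, SE 0.184, edgeR adjusted p = 0.0221). Of the 5 members in males other than Lin28a, H19 rose and 0 fell, while 4.09% of all genes rose and 4.87% fell. The call for H19 was lost without male control 26 (0.55, adjusted p = 0.0634), without male knockout 10 (0.58, adjusted p = 0.062) and in a fit of all 56 libraries (0.63, adjusted p = 0.0659). The knockout effect on H19 in males minus that in females was −1.23 on the log2 scale (SE 0.26, adjusted p = 0.00761).

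**Figure D1:**
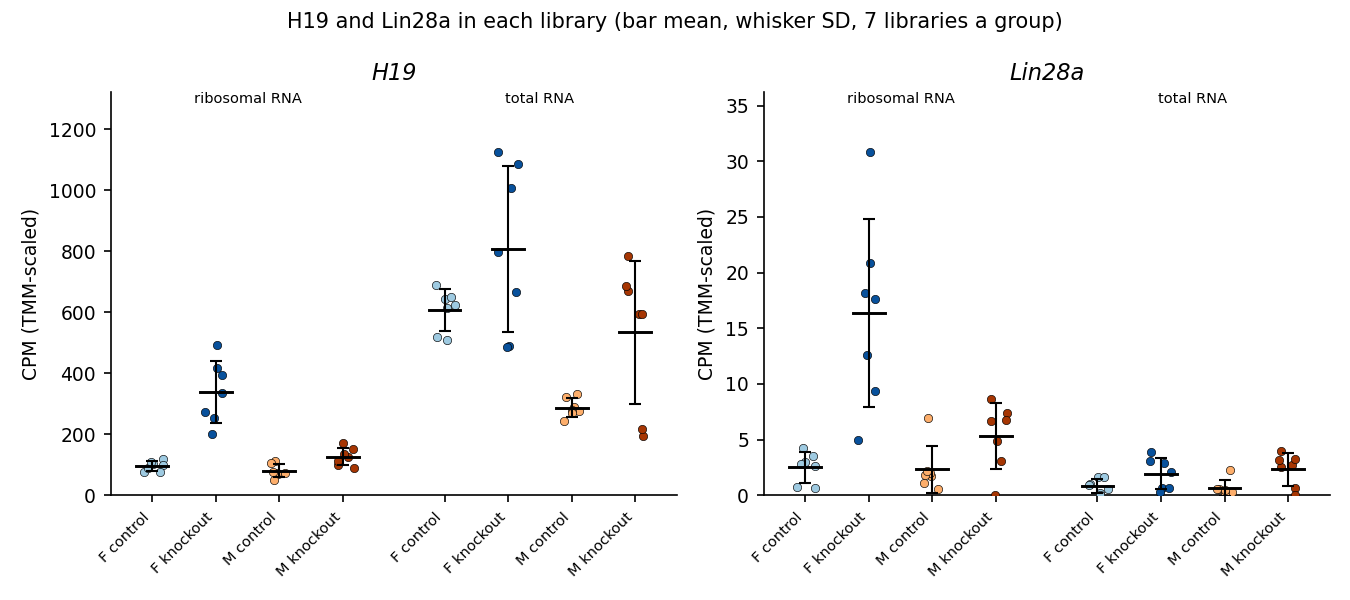
CPM of H19 and Lin28a (linear vertical axes) in each library of the 8 groups; each point is 1 library, the bar is the mean and the whisker the SD of 7. H19 in ribosomal RNA of female labelled knockouts spans 202 to 492 CPM, above the controls at 75.3 to 119, while the total libraries of labelled knockouts spread widely in both sexes.

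Other transcripts moved with H19 in ribosomal RNA of females. All 7 fibroblast markers rose there, and their summed level was 208 to 326 CPM in controls and 380 to 1162 CPM in labelled knockouts. All 5 tested endothelial markers and all 3 tested smooth muscle markers rose as well. So did 4 of 4 RNAs kept in the nucleus, from 228 to 928 CPM in controls to 805 to 6073 CPM in labelled knockouts. None of these fibroblast, endothelial, smooth muscle or nuclear genes was at 0 in all 7 libraries of either group. Of the other tested markers, 3 of 8 for fibres, 1 of 2 for satellite cells and 1 of 2 for immune cells rose. For Schwann cells 2 of 3 rose, and for adipocytes 0 of 4. Of 5 markers of young or denervated fibres 3 rose and 1 fell, and the 1 tested liver marker rose. Over all genes tested there, 8.44% rose and 8.41% fell. Mitochondrially encoded mRNA, which fibre ribosomes in the cytoplasm do not translate, summed to 1635 to 7179 CPM in controls and 6006 to 27661 CPM in labelled knockouts. With that sum as a covariate the H19 difference was 1.52 (adjusted p = 0.000114). The part of the other cell types and of the nuclear RNAs in the rise of H19 was not tested. Among ribosomal libraries of males, 0 of 7 fibroblast markers and 0 of 4 nuclear RNAs were called.

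In total RNA H19 was higher in male labelled knockouts, and the difference in females did not pass. In male controls the lowest, median and highest levels were 242, 281 and 333 CPM, and in male labelled knockouts 195, 595 and 784 CPM. The labelled knockouts split: 5 of them, at 593 to 784 CPM, lay above all controls, and male knockouts 1 and 12, at 195 and 216 CPM, lay below all controls. The rise was 1.84-fold (log2 fold change 0.88, SE 0.228, edgeR adjusted p = 0.0111). Of the 6 members tested here other than Lin28a, H19 rose and 0 fell, while 6.83% of all genes rose and 7.36% fell. Without male knockouts 1 and 12, left out for their H19 level and so without a test, the difference was 1.19. Without male controls 25, 26 and 27 it was 0.85 and no longer called (adjusted p = 0.0934), and without the 5 total libraries in which over 19% of reads lay outside genes, which include those 3, it was 0.85 as well (adjusted p = 0.0765). In whole muscle, more cells that hold an RNA and more of it per cell cannot be told apart.

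Total RNA of female controls held 508, 624 and 689 CPM of H19 (lowest, median and highest), and labelled knockouts held 486, 798 and 1127 CPM. Here too the labelled knockouts spread: female knockouts 5, 6 and 12 held 486 to 668 CPM and the other 4 held 798 to 1127 CPM. The difference was 0.40 (SE 0.225, edgeR adjusted p = 0.278), and 0.71, without a test, when female knockouts 5, 6 and 12 were left out. The split of total RNA did not show in the ribosomal libraries of the same numbers: H19 was at 272 to 394 CPM in female knockouts 5, 6 and 12 against 202 to 492 in the other 4, and at 100 to 127 CPM in male knockouts 1 and 12 against 90.3 to 172 in the other 5. The spread of the labelled knockouts, 272 CPM (SD) in females and 234 in males, exceeded that of controls, 68.4 and 31. The knockout effect in males minus females in total RNA was 0.47 (SE 0.32, adjusted p = 0.66).

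The 3 genes whose level followed H19 most closely over the 28 total libraries, among 9829 genes compared, were Myl2 (Pearson r = 0.95), Tpm3 (0.92) and Tnnt1 (0.92). They encode a myosin light chain, a tropomyosin and a troponin T that are typical of slow fibres. After the group means were taken out, r was still 0.90, 0.85 and 0.87. These values describe libraries that share depth and dissection and carry no test. Myl2 split the labelled knockouts as H19 did: in total RNA male knockouts 1 and 12 held 99.2 and 121 CPM and the other 5 held 237 to 258. Female knockouts 5, 6 and 12 held 208 to 257 CPM of Myl2 and the other 4 held 300 to 432.

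Between labelled knockouts and controls, Tpm3 rose in all 4 comparisons (log2 fold change 0.88 and 0.56 in ribosomal RNA and 0.45 and 0.68 in total RNA of females and males, edgeR adjusted p = 0.000228, 0.0197, 0.0357 and 0.00195). Myl2 rose in ribosomal RNA of females (0.63, adjusted p = 0.0227) and did not pass in the other 3. The part of slow fibre content in the H19 differences was not tested.

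**Figure D2:**
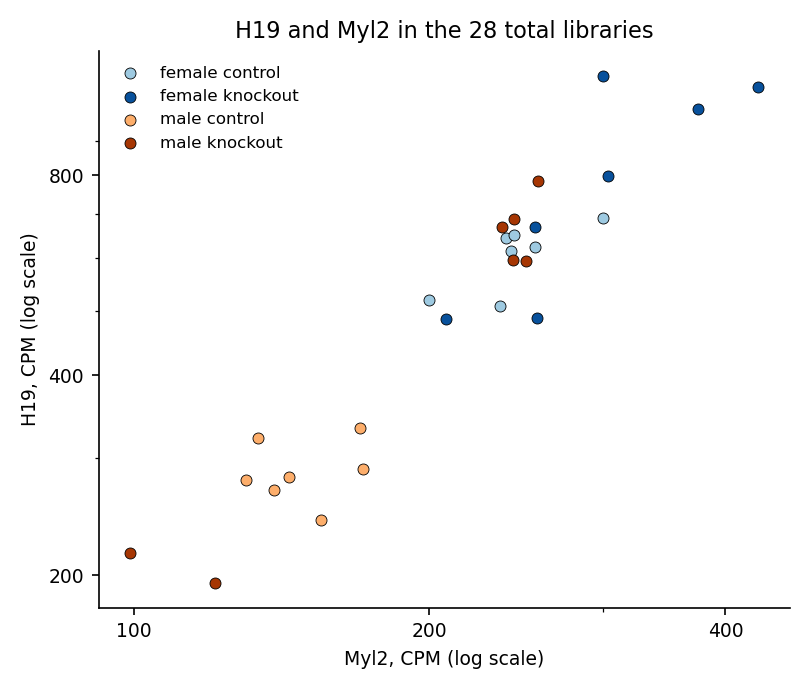
H19 against Myl2 in the 28 total libraries, both in CPM on log axes, with 1 point per library coloured by group. Male knockouts 1 and 12 sit at the lower left with 195 and 216 CPM of H19, and the points of the other groups rise along the same line.

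Lin28a (ENSMUSG00000050966), which is known mainly from embryonic tissue, was at most 6.91 CPM in control libraries of adult muscle and at most 30.8 CPM in labelled knockouts. The filter counted a library from 6.16 CPM in ribosomal and 2.81 CPM in total RNA and needed 7 of them, before TMM scaling. Of the 8 libraries in which Lin28a reached this in ribosomal RNA, 5 were female and 3 male labelled knockouts, and of the 8 in total RNA, 3 and 5. With no control among them, the gene was open to a test only through the group in which it was high, and its values are therefore also given without the filter. Ribosomal Lin28a in females was at 0.64, 2.78 and 4.23 CPM (lowest, median and highest) in the control group, and the labelled knockouts were at 5.01, 17.6 and 30.8 CPM. These levels rest on 1 to 8 counts per control library and 3 to 18 per labelled knockout library. All 7 labelled knockouts lay above all 7 controls, and the fitted difference was 2.87 (SE 0.395), given as a description. With the mitochondrial mRNA sum as a covariate it was 3.62. The fibroblast, endothelial, nuclear and mitochondrial transcripts described for H19 were high in the same group of labelled knockouts. They were not compared with Lin28a library by library, and their part in the Lin28a level was not tested.

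Ribosomal Lin28a in males was at 0.602, 1.84 and 6.91 CPM for controls and at 0, 6.65 and 8.66 CPM for labelled knockouts. The ranges overlapped, since male control 20 held 6.91 CPM and male knockout 2, the shallowest library, held 0 counts. These levels rest on 1 to 5 counts per control library and 0 to 24 per labelled knockout library. Their means were 2.34 ± 2.09 and 5.36 ± 2.97 CPM. Lin28a was open to the filtered test only through labelled knockouts, which limits its adjusted p. The fitted rise was 3.47-fold (log2 fold change 1.80, SE 0.381, edgeR adjusted p = 0.00189), and it was 1.76 without the filter (adjusted p = 0.000718) and 1.99 without ribosomal libraries under 750000 counts (adjusted p = 0.000434). The difference between the sexes in this effect was −1.07 (SE 0.601), as a description.

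Total libraries of male controls held 0.166, 0.513 and 2.26 CPM of Lin28a, and labelled knockouts held 0, 2.72 and 4 CPM. The 5 labelled knockouts with high H19 held 2.52 to 4 CPM, above all controls, and male knockouts 1 and 12 held 0.643 and 0. The fitted rise was 4.41-fold (log2 fold change 2.14, SE 0.60, edgeR adjusted p = 0.0175), and 2.11 on the log2 scale without the filter (adjusted p = 0.0163). It rests on 1 to 6 counts per control library and 0 to 21 per labelled knockout library. The limit that the filter sets holds here too. For females the total levels were 0, 0.953 and 1.64 CPM (controls) and 0.252, 2.11 and 3.93 CPM (labelled knockouts). There female knockouts 5, 6 and 12, the same libraries as for H19, held 0.252 to 0.689 CPM and the other 4 held 2.11 to 3.93. The difference of 1.17 (SE 0.559) did not pass (adjusted p = 0.201). Without those 3 libraries it was 1.73, a description. In ribosomal RNA the ranges of the same numbers overlapped, at 5.01 to 17.6 against 12.6 to 30.8 CPM in females and, for male knockouts 1 and 12, at 3.06 to 8.66 against 0 to 7.43 CPM.

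Calls among the other genes of LIN28 and let-7 are given beside the shares of all genes called, and the list as a whole was not tested against those shares. The list held 12 genes found in the table, of which 8 were tested. In females Dicer1, which cuts miRNA precursors, rose in ribosomal RNA from 55.1 ± 13.4 to 76.6 ± 17.3 CPM (log2 fold change 0.49, SE 0.146, edgeR adjusted p = 0.0182). With Lin28a counted, the list's median difference was 0.21 there, and −0.02 over all genes tested, of which 8.44% rose and 8.41% fell. In males no gene of the list other than Lin28a was called in ribosomal RNA, while 4.09% of all genes rose and 4.87% fell. Ago2, the protein that miRNAs guide, fell in total RNA of females from 118 ± 15.8 to 96.4 ± 13.7 CPM (−0.30, adjusted p = 0.0399) and of males from 118 ± 9.91 to 94.3 ± 9.76 CPM (−0.33, adjusted p = 0.0173). Total RNA of females had 3.79% of all genes up and 4.7% down. For total RNA of males, 6.83% went up and 7.36% down. Drosha, Dgcr8, Tut4, Tut7 and Dis3l2, which process, tail or degrade the precursors, were tested and not called in any of the 4 comparisons. Lin28b, the paralog of Lin28a, did not pass the filter.

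**Figure D3:**
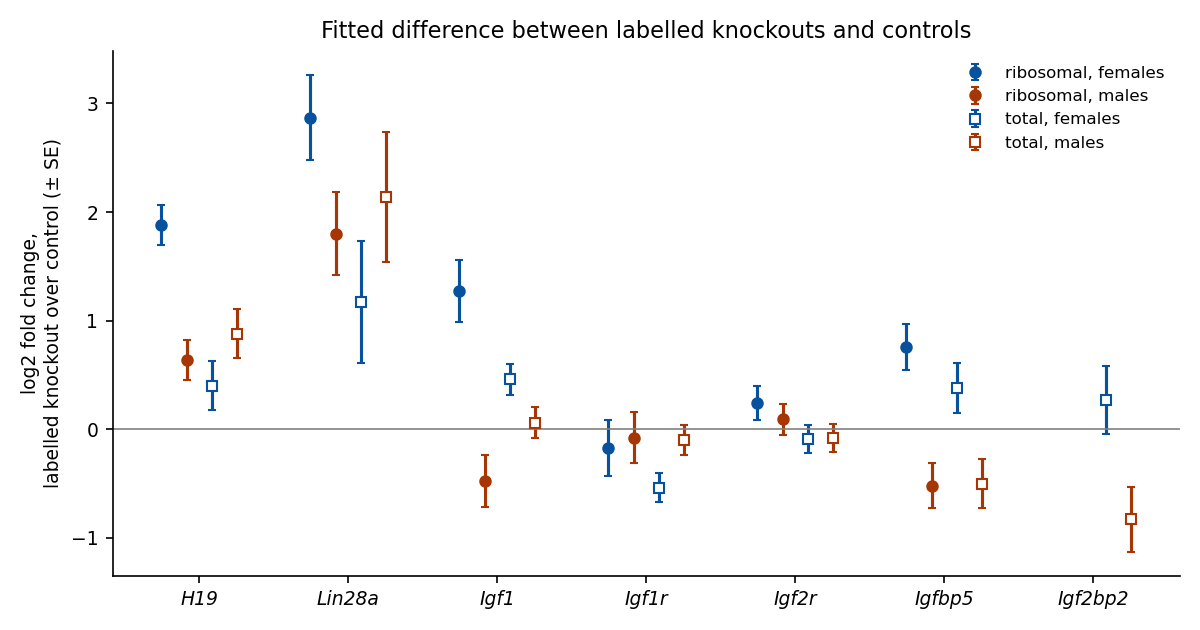
Fitted log2 fold change of labelled knockouts over controls (vertical axis) with its SE for 7 members in ribosomal RNA (filled circles) and total RNA (open squares) of females and males. Lin28a and H19 lie above 0 in all 4 comparisons, at 1.17 to 2.87 and 0.40 to 1.88, while Igf1 and Igfbp5 lie on different sides of 0 in ribosomal RNA of the sexes.

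Igf1 (ENSMUSG00000020053), the ligand of IGF1R, rose in ribosomal RNA of female labelled knockouts and was not called in males. In female controls its lowest, median and highest ribosomal levels were 12.7, 17.4 and 26.3 CPM, and in female labelled knockouts 18.8, 36.7 and 82.7 CPM. The ranges overlapped through a single labelled knockout, number 6 at 18.8 CPM. The rise was 2.42-fold (log2 fold change 1.27, SE 0.284, edgeR adjusted p = 0.00202). It was 0.53 and not called with mitochondrial mRNA as a covariate (adjusted p = 0.446), and the fibroblast, endothelial and nuclear genes described for H19 rose in the same comparison. Igf1 is also a liver gene, and the 7 liver markers listed summed to 2.56 to 21.2 CPM in these controls and to 16.2 to 129 CPM in labelled knockouts, with none of the 7 at 0 in every library of a group. Of the 7, 1 was tested in ribosomal RNA, and it rose in females (3.13) and in males (2.44). In males, where Igf1 was not called, the 7 summed to 1.79 to 9.83 CPM in controls and 3.7 to 115 CPM in labelled knockouts. Their medians there were 3.61 and 7.14 CPM, and those of females were 8.52 CPM in controls and 40.7 CPM in labelled knockouts. The part of these transcripts in the Igf1 level was not tested.

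Ribosomal Igf1 in males was at 17.5, 36.9 and 64 CPM for controls and at 20.1, 26.6 and 57.4 CPM for labelled knockouts, and the ranges overlapped (−0.48, SE 0.239, edgeR adjusted p = 0.224). The effect in males minus females was −1.75 (SE 0.372, adjusted p = 0.00767). Total libraries of female controls held 71.4, 115 and 131 CPM of Igf1, and labelled knockouts held 98.9, 151 and 184 CPM, 6 of which lay above all controls. That rise was 1.37-fold (0.46, SE 0.142, adjusted p = 0.0401). It was lost on leaving out any of 8 of the 14 libraries, with values of 0.39 to 0.47 and adjusted p of 0.0537 to 0.0987: female controls 14 and 21, and female knockouts 1, 2, 5, 6, 10 and 12. It was also lost in a fit of all 56 libraries (0.47, adjusted p = 0.0867) and without female knockouts 5, 6 and 12 (0.42, adjusted p = 0.131). Of the 6 members other than Lin28a, 1 rose and 1 fell in total RNA of females, Igf1 and Igf1r, while 3.79% of all genes rose and 4.7% fell. The difference of Igf1 in total RNA of males did not pass (0.06, SE 0.141, adjusted p = 0.799).

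Clec3b (Pearson r = 0.82), Ifi27 (0.80) and Fam114a1 (0.79) followed Igf1 most closely over the 28 total libraries. Clec3b, a secreted protein of connective tissue, rose where Igf1 rose: by 1.27 in ribosomal and 0.54 in total RNA of females (edgeR adjusted p = 0.000252 and 0.0123). It also rose in total RNA of males (0.53, adjusted p = 0.0108), where Igf1 did not pass. In total RNA 5 of 7 fibroblast markers rose in female labelled knockouts, from a summed 1263 to 2404 CPM to 2133 to 3475 CPM. In males 7 of 7 rose, from 1674 to 2740 CPM to 2723 to 4024 CPM. Their part in the Igf1 values was not tested.

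Igf1r (ENSMUSG00000005533), the receptor kinase, fell in total RNA of female labelled knockouts. Its lowest, median and highest levels there were 52.1, 57 and 75.3 CPM in controls and 34.9, 39.3 and 55.7 CPM in labelled knockouts. Of the labelled knockouts 6 of 7 lay below all controls, with female knockout 9 as the exception at 55.7 CPM. The fall was to 0.69-fold (−0.54, SE 0.134, edgeR adjusted p = 0.0104). Without female knockouts 5, 6 and 12 it was −0.48 and not called (adjusted p = 0.0546). For males the total levels overlapped at 35.5 to 53.2 and 29.4 to 54.5 CPM (−0.10, SE 0.137, adjusted p = 0.643). The difference between the sexes, 0.43 (SE 0.191), did not pass (adjusted p = 0.454). In ribosomal RNA Igf1r was not called in females (−0.17, SE 0.259, adjusted p = 0.701) or in males (−0.08, SE 0.235, adjusted p = 0.879). Tacc2 (r = 0.86) and Il6st (0.85) were among the 3 genes that followed Igf1r most closely in total RNA.

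Igf2r (ENSMUSG00000023830), the receptor that takes up IGF2, passed in no comparison of labelled knockouts and controls. The differences were 0.24 and 0.09 in ribosomal RNA and −0.09 and −0.08 in total RNA of females and males. Their 95% intervals ran from −0.07 to 0.54, −0.18 to 0.36, −0.34 to 0.16 and −0.33 to 0.18. The related Insr, the insulin receptor, fell in 3 of the 4: in ribosomal RNA of males from 88.6 ± 15 to 57.8 ± 7.66 CPM (−0.58, edgeR adjusted p = 0.0134), and in total RNA of females (−0.53, adjusted p = 0.0125) and males (−0.72, adjusted p = 0.00126). Of the 8 ligands and receptors listed, Igf1, Igf1r, Igf2r and Insr were the 4 that passed the filter. B3galnt2 (r = 0.86), Kat2b (0.85) and Arcn1 (0.84) followed Igf2r most closely.

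Igf2 (ENSMUSG00000048583) was close to absent from these counts. In ribosomal RNA it had 0 counts in all 28 libraries, which with 44334783 counts allows a level of up to 0.0677 CPM (3 counts, counting error only). In total RNA it had 37 counts of 104859724, with 0 to 5 per library. The means were 0.216 ± 0.112 and 0.324 ± 0.33 CPM in female controls and labelled knockouts and 0.432 ± 0.37 and 0.249 ± 0.264 CPM in males. The groups overlapped in both sexes, and neither difference passed a two-sided exact permutation test over the 3432 arrangements (p = 0.57 and 0.314, Benjamini-Hochberg adjusted over 2 tests 0.57 and 0.57). The annotation holds a read-through gene, Gm49394, that shares exons of Igf2 on the same strand and had 0 counts. Reads in shared exons can be dropped as ambiguous, so the level of Igf2 may be understated.

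Of 12 genes listed for the H19 and Igf2 locus 5 were tested, and Nctc1 and Lsp1 were called besides H19. Nctc1, a non-coding RNA next to H19, rose in ribosomal RNA of female labelled knockouts from 168 ± 35.4 to 234 ± 40.4 CPM (0.56, SE 0.142, edgeR adjusted p = 0.00601). The nuclear RNAs described for H19 rose there as well, and their part in the Nctc1 value was not tested. Nctc1 did not pass in total RNA of females (−0.14, adjusted p = 0.732) or ribosomal RNA of males (0.30, adjusted p = 0.183). It fell in total RNA of males from 275 ± 137 to 174 ± 24.5 CPM (−0.66, SE 0.209, adjusted p = 0.0322). In that comparison male controls 25, 26 and 27 held 339 to 519 CPM and the other 4 held 141 to 226. Lsp1, an actin-binding protein of leukocytes, rose in total RNA of females from 20.9 ± 2.99 to 28.8 ± 4.63 CPM (0.44, adjusted p = 0.0366), where 2 of 6 immune markers rose. Tnnt3, a fast troponin gene of the locus, was not called in any of the 4 comparisons. H19 hosts Mir675, which had 0 counts.

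**Figure D4:**
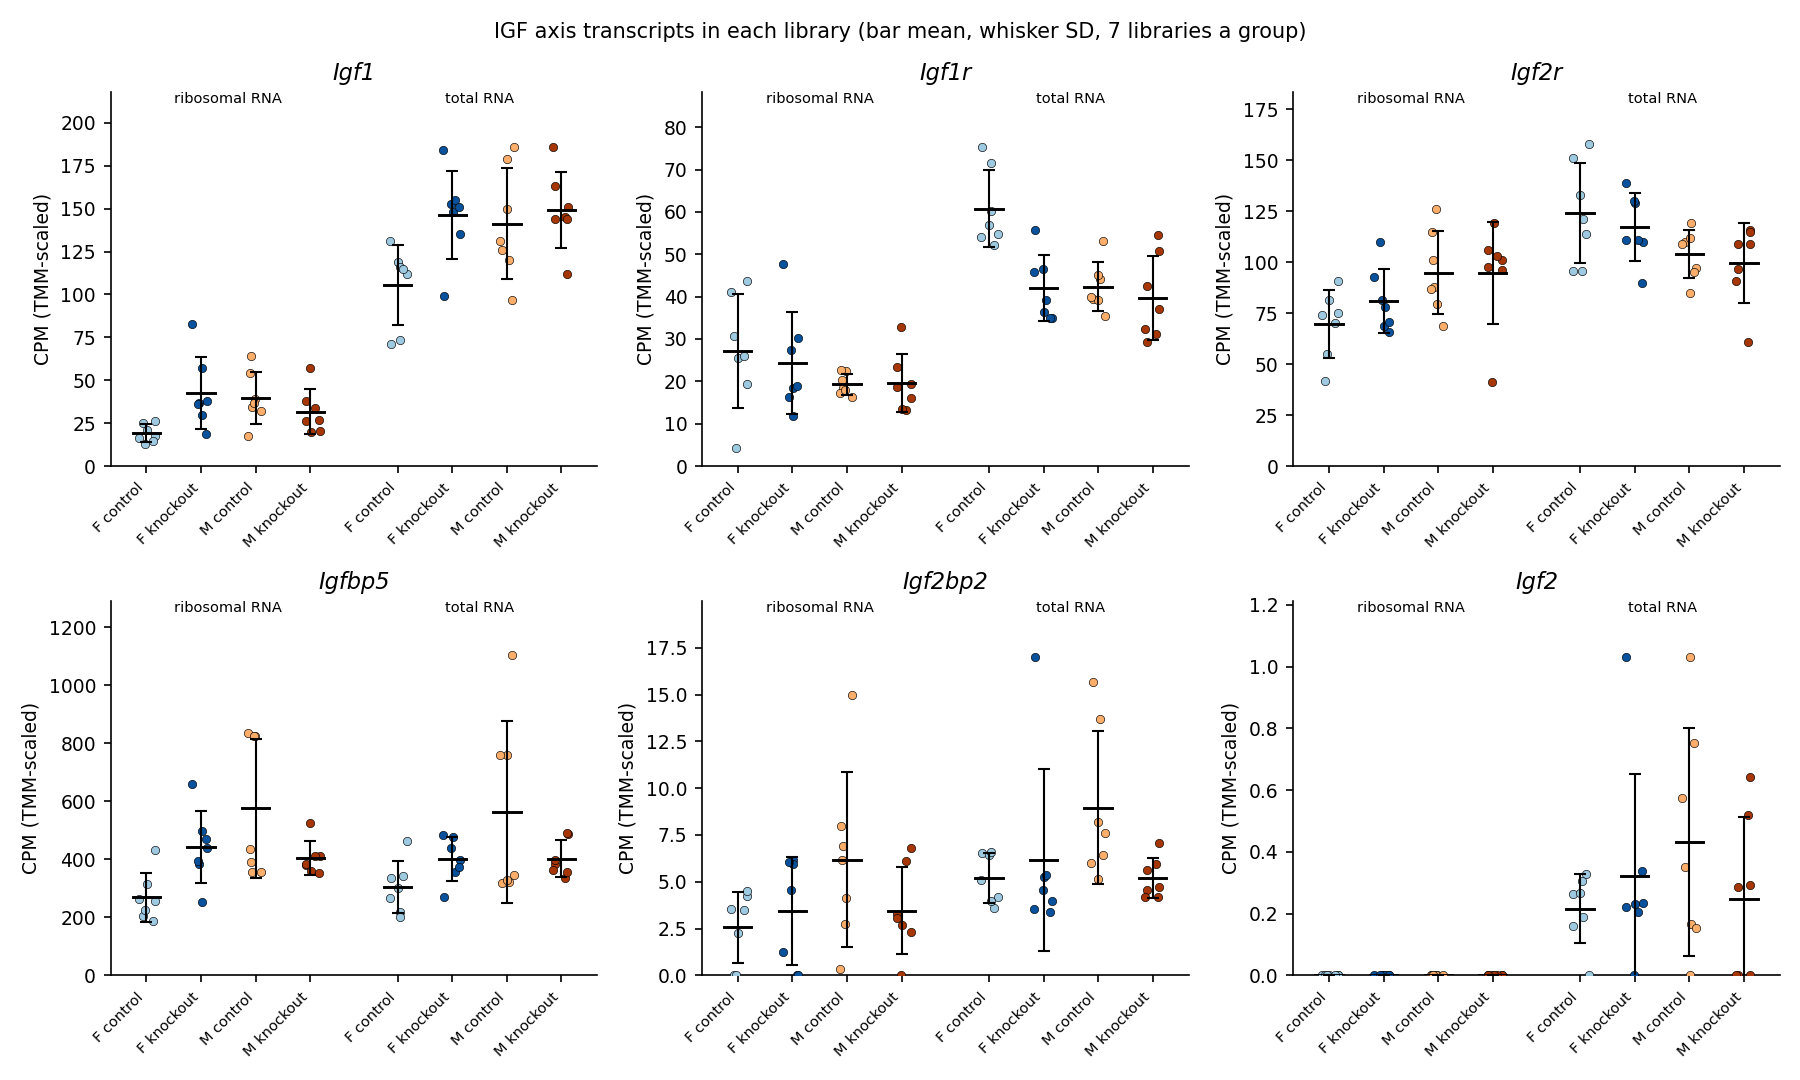
CPM (linear vertical axes) of Igf1, Igf1r, Igf2r, Igfbp5, Igf2bp2 and Igf2 in each library of the 8 groups, with the mean (bar) and SD (whisker) of 7. Igf1 is at 71.4 to 186 CPM in total RNA and at 12.7 to 82.7 in ribosomal RNA, Igf2 is at 0 in every ribosomal library, and Igfbp5 in male controls falls into separate clusters.

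Igf2bp2 (ENSMUSG00000033581), which binds Igf2 mRNA, was low, and its differences did not pass. Total libraries of male controls held 5.13, 7.58 and 15.7 CPM and those of male labelled knockouts 4.17, 4.70 and 7.07 CPM (−0.83, SE 0.298, edgeR adjusted p = 0.0565). Of the labelled knockouts 4 of 7 lay below all controls. Male controls 20 and 21, at 13.7 and 15.7 CPM, were the highest. The difference passed under DESeq2 (−0.83, adjusted p = 0.0487), under limma-voom (−0.86, adjusted p = 0.0191), without a filter (−0.84, adjusted p = 0.0497), in a fit of the 14 libraries (−0.83, adjusted p = 0.0346) and without the 5 total libraries in which over 19% of reads fell outside genes (−1.14, adjusted p = 0.00146). It passed as well without male control 25 (−0.92, adjusted p = 0.0477), without male knockout 1 (−0.90, adjusted p = 0.0498) and without male controls 25, 26 and 27 (−1.13, adjusted p = 0.0428). In females it was 0.27 (SE 0.309, adjusted p = 0.65) and −0.25 without female knockout 9, whose 17 CPM stood far above the 3.39 to 5.35 CPM of the other 6. Ribosomal libraries held 0 to 25 counts each, and with no filter the differences were 0.16 and −0.63 in females and males (adjusted p = 0.982 and 0.447). Igf2bp3 was tested in total RNA alone and not called. Enah (r = 0.82), Otulin (0.81) and Xirp1 (0.81) followed Igf2bp2 most closely.

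Igfbp5 (ENSMUSG00000026185), a secreted binding protein of IGF1 and IGF2, rose in ribosomal RNA of female labelled knockouts. Its levels there were 187, 257 and 431 CPM in controls and 251, 440 and 660 CPM in labelled knockouts (lowest, median and highest). The ranges overlapped, with 4 of 7 labelled knockouts above all controls. The rise was 1.70-fold (0.76, SE 0.213, edgeR adjusted p = 0.0114). It was lost with mitochondrial mRNA as a covariate (0.71, adjusted p = 0.161) and without ribosomal libraries under 750000 counts (0.59, adjusted p = 0.101). The difference in total RNA of females was 0.38 (SE 0.23, adjusted p = 0.324), and 0.48 without those 5 libraries with many reads outside genes (adjusted p = 0.0324).

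In males Igfbp5 was lower in labelled knockouts in both RNA types without passing: −0.52 (SE 0.208, edgeR adjusted p = 0.12) in ribosomal and −0.50 (SE 0.229, adjusted p = 0.138) in total RNA. The ribosomal difference passed without libraries under 750000 counts (−0.67, adjusted p = 0.0354), without a filter (−0.56, adjusted p = 0.00557) and under limma-voom (−0.49, adjusted p = 0.0375). The male labelled knockouts were close together, at 354 to 525 CPM in ribosomal and 337 to 491 CPM in total RNA. The male controls fell into separate clusters, and the 2 RNA types split them differently. In total RNA, controls 25, 26 and 27 held 758 to 1105 CPM and the other 4 held 318 to 347. In ribosomal RNA, controls 21, 22 and 23 held 824 to 836 CPM and the other 4, which include 25, 26 and 27, held 356 to 435. By the numbers in the labels these are the same 7 mice, and no number was high in both. Over 500 genes the same-numbered libraries of male controls correlated by −0.145 on average, and whether numbers were exchanged was not tested. Values read by mouse, or with the mouse as a block, rest on these numbers. Controls 25, 26 and 27 were also among the 5 total libraries with the most reads outside genes. Leaving out the high controls of each RNA type, as a description, gave knockout differences of 0.05 in ribosomal and 0.27 in total RNA, on the other side of 0. The effect on Igfbp5 in males minus females was −1.28 in ribosomal RNA (SE 0.297, adjusted p = 0.015), and −0.88 in total RNA (SE 0.325, adjusted p = 0.358). Without the high controls these were −0.71 and −0.11, without a test.

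**Figure D5:**
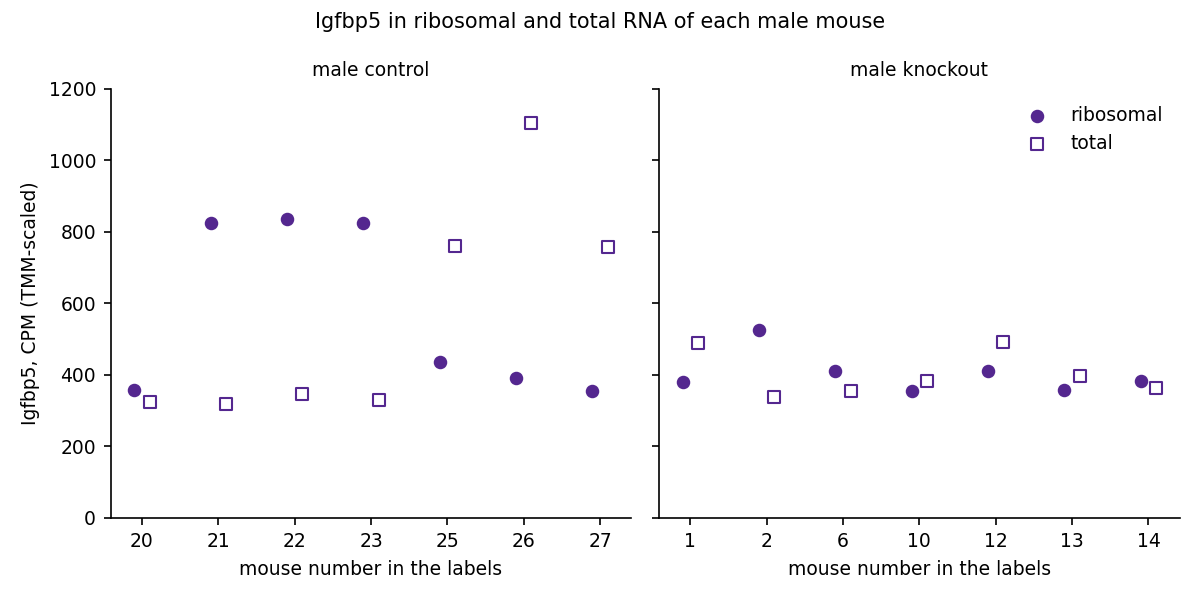
Igfbp5 in CPM (linear axis from 0) in ribosomal (filled circles) and total (open squares) RNA of each male mouse, ordered by its number in the labels. Controls 21, 22 and 23 are high in ribosomal RNA alone (824 to 836), controls 25, 26 and 27 in total RNA alone (758 to 1105), and the labelled knockouts stay at 337 to 525.

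Igfbp4 and Igfbp6 also rose in ribosomal RNA of female labelled knockouts. Of 13 genes of binding proteins and their proteases, 6 were tested there, Igfbp5 among them. With Igfbp5 counted, 3 rose and 1 fell (median 0.45, and −0.02 over all genes, of which 8.44% rose and 8.41% fell). Igfbp7 (0.08, edgeR adjusted p = 0.935) and Htra1 (0.14, adjusted p = 0.666) were not called. The fibroblast (7 of 7), endothelial (5 of 5), smooth muscle (3 of 3) and nuclear (4 of 4) transcripts described for H19 rose in the same comparison, and their part in these values was not tested. Igfbp6, which prefers IGF2, rose from 15.6 ± 5.49 to 35.9 ± 16.4 CPM (1.41, SE 0.286, edgeR adjusted p = 0.000757). Igfbp4 rose from 39.6 ± 17.9 to 88.1 ± 40.3 CPM (1.14, SE 0.234, adjusted p = 0.000847). Igfals, a partner of circulating IGF complexes, fell from 7.61 ± 2.75 to 2.85 ± 2.66 CPM (−1.44, SE 0.434, adjusted p = 0.0192). For males 0 of 6 were called in ribosomal RNA (median −0.38). Total RNA gave 0 calls of 10 in females. In males 3 of 10 rose there, Igfbp4 (0.64, adjusted p = 0.00234), Igfbp6 (0.53, adjusted p = 0.00721) and Igfbp7 (0.73, adjusted p = 0.0133), and Stc1, which inhibits a protease of binding proteins, fell from 4.14 ± 1.1 to 2.31 ± 0.771 CPM (−0.87, adjusted p = 0.0273). Over all genes 6.83% rose and 7.36% fell there, and 7 of 7 fibroblast markers rose, whose part in these values was not tested.

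Nipa2 (r = 0.88), Tmx2 (0.87) and Crot (0.84) followed Igfbp5 most closely over the 28 total libraries. Nipa2 was not called between labelled knockouts and controls in any of the 4 comparisons.

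Between the sexes, H19 in controls was lower in males in total RNA: 288 ± 31 against 607 ± 68.4 CPM, with all 7 males below all 7 females (−1.09, SE 0.229, edgeR adjusted p = 0.00222). Igf1r was lower in male controls too (−0.54, SE 0.134, adjusted p = 0.00957), with 6 of 7 males below all females. Igfbp5 was higher in male controls (0.88, SE 0.231, adjusted p = 0.0145), but without controls 25, 26 and 27 the difference was 0.11, a description. Thus 1 member was higher and 2 were lower in males of 7, while 4.75% of all genes were higher and 3.95% lower. Between the sexes 0 of 7 members passed in total RNA of labelled knockouts, where 1.84% of all genes were higher in males and 1.02% lower. H19 was there at 534 ± 234 CPM in males and 808 ± 272 in females (−0.61, SE 0.226, adjusted p = 0.162).

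Among controls 2 of 6 members were higher in males in ribosomal RNA and 0 lower, while 4.25% of all genes were higher and 3.37% lower. Igf1 was at 39.7 ± 15.2 CPM in males and 19 ± 5.17 in females (1.05, SE 0.261, edgeR adjusted p = 0.00846). Igfbp5 was at 575 ± 238 and 269 ± 83.5 CPM (1.07, SE 0.21, adjusted p = 0.000695), and without male controls 21, 22 and 23 the difference was 0.51, a description. H19 did not pass between the sexes there (−0.29, SE 0.187, adjusted p = 0.381). Among labelled knockouts 2 of 5 members with a test were lower in males in ribosomal RNA and 0 higher, while 17.2% of all genes were lower and 16.5% higher. They were H19, with all 7 males below all 7 females (−1.52, SE 0.183, adjusted p = 4.75e-07), and Igf1 (−0.71, SE 0.264, adjusted p = 0.0369).

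The test of the knockout effect in males minus females called 3 of 5 members in ribosomal RNA, H19, Igf1 and Igfbp5, all lower in males, while 1.54% of all genes were lower and 1.89% higher. In total RNA it called 0 of 7 members. There 0% of all genes, 0 of 12860, passed with edgeR, while 1225 had an unadjusted p under 0.05 and DESeq2 called 8 genes.

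Ribosomal and total RNA of the same muscles differed most, among the 7 members that passed the filter, for H19, Igf1 and Lin28a. Igf2, at 0 in every ribosomal library, is left out here. H19 was lower in ribosomal RNA in every group, with a mean of 15.8% (controls) and 41.9% (labelled knockouts) of its total level among females, and of 28% and 23.7% among males. The fitted differences in that order were −2.66, −1.27, −1.87 and −2.13 (edgeR adjusted p = 1e-15, 5.22e-07, 4.43e-11 and 9.29e-13). The percentages compare CPM in fibre ribosomal RNA with CPM in whole muscle and do not give the share of H19 on ribosomes. Igf1 was lower in ribosomal RNA as well (−2.46, −1.72, −1.83 and −2.41), and its libraries did not overlap between RNA types in any group. Igf1r was lower in each group (−1.05, −0.76, −1.13 and −1.13). Of 7 members tested, 4 were lower in ribosomal RNA of female controls and 0 higher, while 38.1% of all genes were lower and 30.1% higher. In male controls 3 were lower and 1, Lin28a, higher (38.6% and 32.1% of all genes), and the same numbers held for male labelled knockouts (37.1% and 31.1%). Of the 6 with a test in female labelled knockouts, 4 were lower and 0 higher (38.2% and 26.6%). With so many genes called, these counts say little of the members.

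Igf2r was lower in ribosomal RNA of female controls (−0.75, edgeR adjusted p = 6.26e-06) and female labelled knockouts (−0.50, adjusted p = 0.00297). In males it did not pass (−0.12 in controls and 0.02 in labelled knockouts, adjusted p = 0.429 and 0.893). With RLE size factors the median of all genes in these contrasts moved by −0.14 to −0.25, and Igf2r was then −0.35 in male controls, where it was called (adjusted p = 0.015), and −0.22 in male labelled knockouts. Igfbp5 differed between the RNA types by −0.15 to 0.14, none of them called, and with RLE factors the value in male controls was −0.18.

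Lin28a was higher in ribosomal RNA. In male controls it was at 2.34 ± 2.09 CPM in ribosomal and 0.645 ± 0.733 CPM in total RNA (1.72, SE 0.627, edgeR adjusted p = 0.0126). In male labelled knockouts it was at 5.36 ± 2.97 and 2.33 ± 1.46 CPM (1.39, SE 0.411, adjusted p = 0.00249). In female controls the difference of 1.3 missed the threshold (SE 0.605, adjusted p = 0.0529) and passed with the mouse as a block (1.4, adjusted p = 0.0396). In female labelled knockouts it was 2.96 (SE 0.43), as a description, with all 7 ribosomal libraries above all 7 total ones. In this fit the filter began at 3.63 CPM, which 9 female and 8 male labelled knockout libraries and 1 male control library reached. Without the filter the differences were 1.67 in male controls, 1.35 in male labelled knockouts and 1.22 in female controls (adjusted p = 0.007, 0.000849 and 0.0575).

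The knockout effect in ribosomal minus total RNA was 1.39 for H19 in females (SE 0.302, edgeR adjusted p = 0.00565), the 1 call among 6 members with a test, while 1.85% of all genes were higher and 1.61% lower. Without ribosomal libraries under 750000 counts it was 1.13 and not called (adjusted p = 0.0556). In females the summed nuclear RNAs had a median of 430 CPM in controls and 2351 CPM in labelled knockouts in ribosomal RNA. In total RNA their medians were 2849 and 2608 CPM. Mitochondrially encoded mRNA had medians of 2843 and 13874 CPM in ribosomal and 30901 and 37179 CPM in total RNA. The part of these RNAs in the H19 value was not tested. In males 0 of 7 members were called, with 0.0319% of all genes higher and 0.0956% lower, and the value for H19 was −0.27 (SE 0.302, adjusted p = 0.863).

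Downstream of the receptors, genes of receptor substrates and AKT to mTOR signalling were called in both directions. Of the 28 listed, 27 were tested in ribosomal RNA: 1 rose and 6 fell in females, and 1 rose and 3 fell in males. All 28 were tested in total RNA, with 1 up and 5 down in females and 2 up and 3 down in males. The list's medians were −0.32, 0.01, −0.13 and −0.14 in that order, beside −0.02, −0.01, 0.01 and 0.00 over all genes. The shares of all genes that rose and fell were 8.44% and 8.41%, 4.09% and 4.87%, 3.79% and 4.7%, and 6.83% and 7.36%. Grb14, an adaptor that inhibits the insulin receptor, rose in all 4 comparisons (0.61, 0.88, 0.87 and 0.69, edgeR adjusted p = 0.0341, 0.000656, 0.00271 and 0.0125). Its total level in females was 23.9 ± 5.65 CPM in controls and 43.8 ± 8.45 in labelled knockouts.

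Members that fell included Eif4ebp1, a translation repressor that mTOR phosphorylates, in ribosomal RNA of females (−0.88, edgeR adjusted p = 0.00314), in ribosomal RNA of males (−0.55, adjusted p = 0.0356) and in total RNA of females (−0.81, adjusted p = 0.00862). Rps6kb1, a kinase that mTOR activates, fell in ribosomal RNA of females (−0.47, adjusted p = 0.00706) and males (−0.53, adjusted p = 0.00135) and in total RNA of males (−0.47, adjusted p = 0.00265). These genes have opposing roles in the pathway, and the list as a whole was not given a test. Of 7 genes of growth hormone signalling, which drives Igf1 in liver, 6 were tested in ribosomal RNA and 7 in total RNA. Stat5b fell in ribosomal RNA of females (−0.38, adjusted p = 0.00858) and males (−0.36, adjusted p = 0.02). Socs3 fell in total RNA of males from 13.9 ± 12.7 to 6.1 ± 1.62 CPM (−1.27, adjusted p = 0.0218), with 0 labelled knockouts below all controls. The shares of all genes that fell in these comparisons were 8.41%, 4.87% and 7.36%.

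Of the network of imprinted genes that H19 belongs to, 20 genes were listed. Of these 11 were tested in ribosomal RNA of females, of which 4 rose and 0 fell: H19, Nnat, Meg3 and Dcn. Meg3, another maternally expressed long non-coding RNA and 1 of the nuclear RNAs above, rose from 3.34 ± 2.37 to 20.4 ± 14.6 CPM (2.55, SE 0.523, edgeR adjusted p = 0.000838). Dcn is a fibroblast marker. Males had 2 up and 2 down in ribosomal RNA, and Nnat rose from 13.4 ± 3.18 to 33.5 ± 24.1 CPM (1.06, adjusted p = 0.0047). Total RNA had 16 tested, with 1 up and 2 down in females and 3 up and 2 down in males. Over all genes 8.44% rose and 8.41% fell in ribosomal RNA of females, and 4.09% and 4.87% in that of males. Total RNA had shares of 3.79% and 4.7% (females) and of 6.83% and 7.36% (males). Slc38a4, a paternally expressed amino acid transporter, fell in 3 of the 4 comparisons: ribosomal RNA of males (−0.63, adjusted p = 0.00312) and total RNA of females (−0.57, adjusted p = 0.00995) and males (−0.78, adjusted p = 0.000695). Peg3, a paternally expressed zinc finger gene, fell in total RNA of females (−0.70, adjusted p = 0.00262) and males (−0.59, adjusted p = 0.0118).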

How the data were processed

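Per the labels' protocols, 500 ng of RNA per sample went into Lexogen QuantSeq 3′ libraries with forward reads of 50 bp. The tools that the submitters' processing notes name are DESeq2 1.40.1, R 4.3.0, HTSeq, STAR and UMI-tools, and the build is GRCm39. The authors' deposited table holds raw whole-number counts per gene and library and was used as deposited. It has 57010 genes and 5 summary lines, which were left out. In ribosomal libraries 4.82 to 12.5% of reads fell outside genes, and in total libraries 9.54 to 23.37%. Symbols came from a GRCm38.p6 gene table (52029 matched, 97.56% of counts). The design text gives 7 male and 7 female mice and the protocol 14 of each. Columns and labels show 28 mice with 2 libraries each. A library titled RRNA (male knockout 13) has total RNA as its characteristic and was used as total. No 2 libraries were identical.

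Genes were tested with edgeR 4.0.16 (filterByExpr with a minimum count of 10, TMM, quasi-likelihood F-test) in R 4.3.3. Ribosomal libraries (9098 genes) and total libraries (12860) were fitted apart with 4 group means each, and contrasts between RNA types used all 56 libraries (12546 genes). Adjusted p is Benjamini-Hochberg over all genes of a contrast, called under 0.05. Positive differences are higher in labelled knockouts, males or ribosomal RNA. CPM used TMM factors over all 56 libraries. Relative to the median library of each RNA type, the scaled library sizes differ from those of the separate fits by at most 8.16%. Logarithms used a prior count of 2. Separate mice are stated only by the labels' numbers, and p-values measure the spread between these libraries. The members, gene lists, alternatives and tests were chosen with earlier results of these data known, so no call of a member is independent evidence. Named genes are the members, up to 3 called genes of lowest p per list and comparison, the tested genes of the binding protein and LIN28 lists, and for each member with at least 5 CPM the 3 genes of highest correlation. Clec3b, Nipa2, Tacc2, Tpm3 and Myl2 came from the last rule. Some items that these rules name are not reported here.

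Libraries of the same number, sex and genotype come from the same mouse by the labels. Their deviations from the group means, over 500 genes, correlated by 0.065 (female controls), 0.154 (female labelled knockouts), −0.145 (male controls) and 0.0519 (male labelled knockouts) on average, below 0 in male controls. On counts simulated from the real means, the fit recovered 74% of 2-fold changes in ribosomal RNA of females (9011 genes) and 86% in total RNA of females (12725 genes). Of 1.5-fold changes it recovered 26% and 50%, so a difference that did not pass can still be a change of that size. Alternatives were RLE size factors, no filter, DESeq2 1.42.0, limma-voom 3.58.1, other sets of libraries in the fit, the mouse as a block, a mitochondrial mRNA covariate and libraries left out. A gene for whose level libraries were left out got no test without them. Leaving out male knockouts 1 and 12, male controls 25 to 27 and male controls 21 to 23 was chosen after seeing the data. Female knockouts 5, 6 and 12 also stand apart in these total libraries, so leaving them out is not independent of the data. In total RNA they held 110 to 140 CPM of the gene Mss51, and the other 4 held 257 to 440. Adjusted p-values given without any of these sets carry that limit.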

Additional observations from a re-analysis of the deposited data

Results flagged for a closer look

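Of 60 groups of 7 libraries screened over the 8 genes, 6 held a library whose gap to its nearest neighbour took up a larger share of the group's range than Dixon's 95% critical value allows. Chance alone flags about 1 in 20 groups. Female knockout 9 was far above its group in total RNA for Igf2, at 1.03 CPM, and for Igf2bp2, at 17 CPM. Lin28a was far above the rest in the ribosomal library of male control 20, at 6.91 CPM, and in the total library of male control 26, at 2.26 CPM. The ribosomal library of male knockout 2, the shallowest of the series, was low for Igf2r, at 41 CPM, and high for Igfbp5, at 525 CPM.

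The knockout effect differed between the sexes in ribosomal RNA for 3 members by edgeR's test of the difference. In males minus females it was −1.23 for H19, −1.75 for Igf1 and −1.28 for Igfbp5 on the log2 scale. The effect on H19 in females was larger in ribosomal than in total RNA, by 1.39. The summed levels of mitochondrial, nuclear and fibroblast transcripts moved in the same ribosomal libraries of female labelled knockouts.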

How the results depend on the processing

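No called difference of a member changed sign under any alternative that was run. Counts of called genes moved by over 1.5 times as follows, and the cause was not tested. For labelled knockouts against controls in ribosomal RNA of females, 1533 genes became 936 in a fit of the 14 libraries, 2508 in a fit of all 56 and 508 with the mitochondrial covariate. In ribosomal RNA of males 815 became 1749 under limma-voom and 1256 in a fit of all 56. In total RNA of males 1824 became 645 without libraries with over 19% of reads outside genes and 396 without male controls 25, 26 and 27. For the sex difference of controls in ribosomal RNA, 694 became 1135 in a fit of all 56 and 335 without male controls 21, 22 and 23. For the effect in males minus females, ribosomal RNA gave 312 genes, 626 without a filter and 829 in a fit of all 56. Total RNA gave 0, and 4 without a filter, 8 under DESeq2, 1 in a fit of all 56 and 3 without male controls 25, 26 and 27. For the effect in ribosomal minus total RNA, 16 genes in males became 53 without a filter, 45 under DESeq2 and 27 without ribosomal libraries under 750000 counts.

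Leaving out each library in turn gave 1125 to 1764 genes in ribosomal RNA of females, 538 (without male knockout 14) to 821 in ribosomal RNA of males, 762 to 1284 in total RNA of females and 1134 (without male control 27) to 2127 in total RNA of males. In the last, 1167 were left without male control 26 and 1214 without male knockout 14.

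With the mouse as a replicate block, the count for the effect in ribosomal minus total RNA of females fell from 434 to 261, Lin28a in female controls passed (1.4, adjusted p = 0.0396), and no other call changed. Calls of members that alternatives ended or made stand beside the results. Besides those, Igf1 between sexes missed the threshold under DESeq2 in labelled knockouts (−0.66, ribosomal, adjusted p = 0.0554) and passed in controls (0.41, total, adjusted p = 0.0494). Without male controls 25, 26 and 27, Igf1 (0.52, adjusted p = 0.0322) and Igf2bp2 (1.11, adjusted p = 0.0217) passed between the sexes in total RNA of controls. Between RNA types of male controls, Igf2bp2 passed with RLE factors (−0.93, adjusted p = 0.0169), without a filter (−0.76, adjusted p = 0.0184) and under DESeq2 (−0.86, adjusted p = 0.0329), and Igf2r under DESeq2 (−0.35, adjusted p = 0.0154). Depth limits Lin28a, Igf2bp2 and Igf2 most, with 0 to 25 counts of Lin28a and Igf2bp2 in a ribosomal library.

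Differences that were not called changed sign as follows. In total RNA of females, Igf2bp2 was −0.04 under limma-voom, −0.20 without libraries with many reads outside genes and −0.25 to 0.37 with each library left out (−0.25 without female knockout 9). In total RNA of males, leaving out the libraries with many reads outside genes gave −0.06 for Igf1 and 0.26 for Igfbp5, and leaving out male controls 25, 26 and 27 gave −0.05 and 0.27. With each library left out there, Igf1 ran from −0.01 (without male control 26) to 0.14 and Igf2r from −0.12 to 0.02 (without male knockout 2). Igfbp5 in ribosomal RNA of males was 0.05 without male controls 21, 22 and 23. Between RNA types, Igf2r in male labelled knockouts was −0.05 with the mouse as a block, −0.22 with RLE factors, −0.02 without a filter and −0.22 under DESeq2, and Igfbp5 in male controls was −0.18, −0.01 and −0.18 in the last 3. The knockout effect in ribosomal minus total RNA was 0.01 (RLE) and 0.05 (DESeq2) for Igf2bp2 in females and 0.01 without a filter for Igf1r in males.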
